A study of Mus musculus with 6 samples.

Results

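Hal, Ednrb, Asgr2 and Gm2042 are 4 mouse genes whose signal stood out in macrophages with high CD206, sorted from the sublingual mucosa. They were chosen for exactly that pattern, so their levels in that fraction and their differences from the other fractions are given below as a description, without a test. All probes that the array files name for them were taken: 2 for Hal, 3 for Ednrb, 1 for Asgr2 and 1 for Gm2042, which makes 7 of the 56605 probes that were not controls. Together they are 4 of the 20817 genes tested.

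Cells came from BALB/c mice, an inbred strain, with FITC, a fluorescent hapten, painted 2 times on the sublingual mucosa. From minced tongue, freed into cells by 30 min of enzyme digestion, 3 fractions were sorted: Fr3 (F4/80+CD206hi), Fr1 (CD11c+CD206-) and Fr2 (CD11c-F4/80+CD206-). Each fraction was hybridised to 2 1-colour arrays from independent experiments, and every group carried the same FITC painting, so no unpainted mucosa entered the comparison. The sources used here do not give the number of mice per sort, and the RNA was amplified before labelling. The question the series put was how the expression profiles of dendritic cell and macrophage subsets of the mucosa compare.

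The annotated genes belong to separate pathways. Hal encodes histidine ammonia-lyase, which removes the amino group of histidine and so opens the breakdown of that amino acid by way of urocanate; it is best known from liver and epidermis. Ednrb encodes the type B endothelin receptor, a G protein-coupled receptor for the vasoactive endothelin peptides, known from endothelium, glia and the melanocyte lineage. Asgr2 encodes a subunit of the asialoglycoprotein receptor, the hepatic lectin that takes up glycoproteins whose galactose is exposed after loss of sialic acid. Gm2042 is a gene model known by number, listed as protein coding in RefSeq, and no function is annotated for it in the sources used here.

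The probes are 60-base oligonucleotides. The brightest of each gene is printed 5′ to 3′ with T in capitals, because the arrays of Fr3 differed in how bright T-rich probes were (values below). The positions are those of the array files, on the mouse build mm9.
Hal, chr10:92979135-92979194, plus strand: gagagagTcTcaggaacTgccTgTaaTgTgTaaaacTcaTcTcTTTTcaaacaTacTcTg
Ednrb, chr14:104214484-104214543, minus strand: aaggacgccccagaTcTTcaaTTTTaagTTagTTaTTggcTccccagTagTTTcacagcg
Asgr2, chr11:69919568-69919627, plus strand: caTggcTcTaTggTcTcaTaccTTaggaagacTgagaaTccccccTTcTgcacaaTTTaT
Gm2042, chr12:89199059-89199118, plus strand: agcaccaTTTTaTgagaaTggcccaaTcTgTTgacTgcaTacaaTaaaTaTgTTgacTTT
They held 18 T bases in Hal, 18 in Ednrb, 18 in Asgr2 and 20 in Gm2042. Whether a probe lies in a coding exon or a UTR was not determined here, as no mm9 annotation was used.

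Levels are log2 of the processed intensity minus the array's 75th percentile, so 0 is the 75th percentile and each step of 1 is a doubling. A probe's level can be followed across arrays but not set against another probe's. The sort markers were checked first. Mrc1, which encodes CD206, was at 3.78 and 2.67 on the Fr3 arrays, −4.09 and −3.50 on the Fr1 arrays, where it was not well above background, and 0.64 and 0.33 on the Fr2 arrays. Fr2, labelled CD206-negative, thus carried Mrc1 signal well above background on both of its arrays. Itgax (CD11c) was at 0.20 and 0.95 in Fr3, 2.71 and 2.35 in Fr1 and 2.77 and 1.20 in Fr2, so the CD11c-negative Fr2 overlapped Fr1. Adgre1 (F4/80) was at 5.46 and 5.32 in Fr3, 4.49 and 4.39 in Fr1 and 5.94 and 5.97 in Fr2. Of the 26 resident CD206-high macrophage markers, all of them tested, 21 were higher in Fr3 than in Fr1 and 20 higher than in Fr2 by the rule that no arrays overlap and the means differ by at least 1, beside 12.4% and 11.9% of all genes. These markers include genes that earlier results of these data had shown, so the count is not independent support for the label.

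Between 44.6% and 52.4% of spots were well above background per array, and 0 were saturated. The Fr3 arrays were the least alike replicates: replicate arrays correlated across genes at 0.796 in Fr3, 0.883 in Fr1 and 0.898 in Fr2 (Pearson). Levels on the second Fr3 array minus those on the first had a median of 0.70 for genes whose probe held 0 to 11 T bases. That median was 0.25 for 18 to 20 and −0.69 for 21 or more. The arrays of Fr3 and Fr1 were on the same slide, scanned together, while those of Fr2 were on a different slide, so that slide and fraction cannot be told apart in comparisons with Fr2. In sorted bulk samples, fewer cells that carry a transcript and less of it per cell cannot be told apart either.

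**Figure D1:**
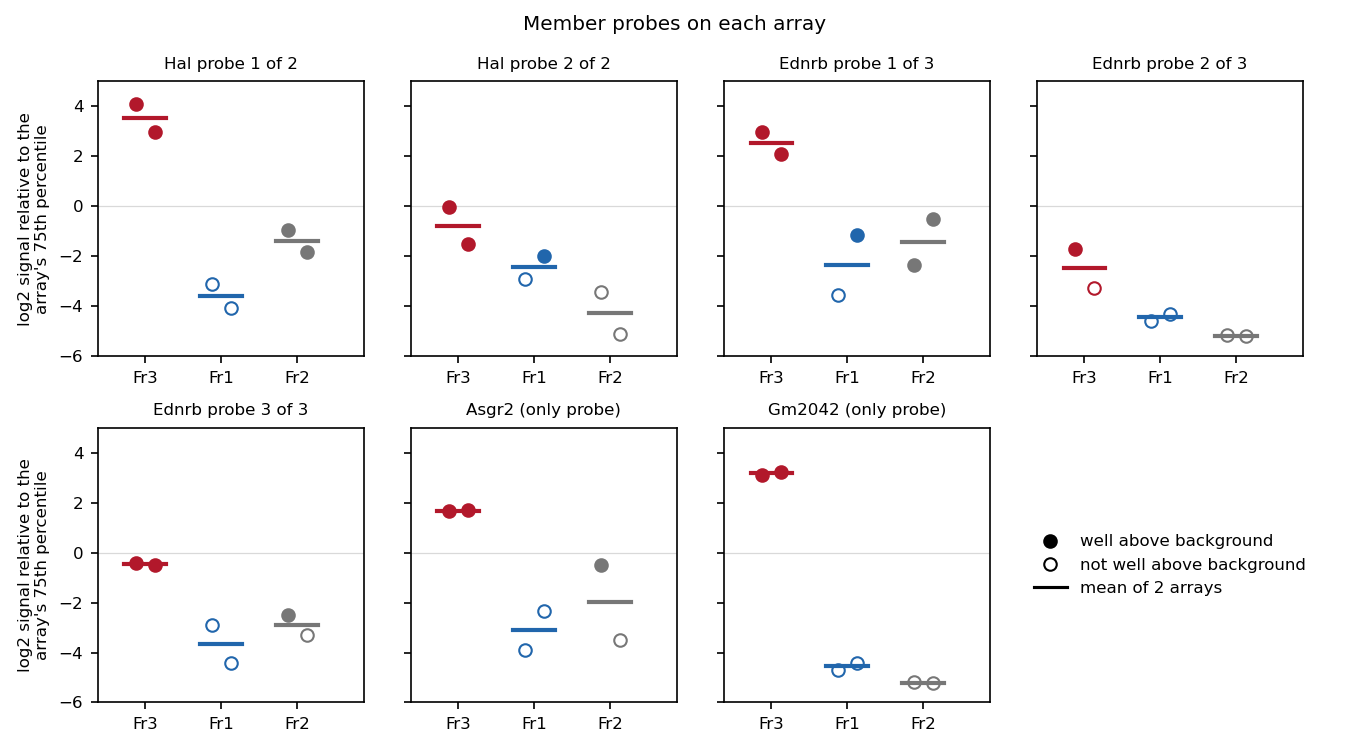
Level of each of the 7 probes of Hal, Ednrb, Asgr2 and Gm2042 on every array (y axis, log2 signal relative to the array's 75th percentile), by fraction (x axis, Fr3, Fr1 and Fr2, 2 arrays each). Points are arrays, open where the probe was not well above background, and bars are means of 2 arrays. Every Fr3 point lies above every other point of its panel, and the Gm2042 probe is open on all 4 arrays outside Fr3.

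Hal, the enzyme gene, had a bright signal in Fr3 and a dim but measurable one in Fr2. Its probe 1 was at 4.11 and 2.96 on the Fr3 arrays, −3.13 and −4.08 on the Fr1 arrays, and −0.95 and −1.85 on the Fr2 arrays. It was well above background on both Fr3 and both Fr2 arrays and on neither Fr1 array, and no fraction overlapped another. As processed intensity this was 763 and 220 in Fr3, 3.38 and 1.62 in Fr1 and 17.3 and 9.58 in Fr2. Mean levels were 3.54 ± 0.81 in Fr3, −3.60 ± 0.67 in Fr1 and −1.40 ± 0.64 in Fr2 (SD, n = 2 each). Fr3 exceeded Fr1 by 7.14 ± 0.70 (log2 difference ± SE, limma), at least 55.7-fold. It exceeded Fr2 by 4.94 ± 0.70, which is 30.7-fold. "At least" stands where a fraction was not well above background on either array, and the bound uses the lowest signal well above background on those arrays.

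The second Hal probe, designed to an Ensembl transcript and lying on chr10:92981534-92981593, was dimmer and kept the order of Fr3 over the rest. It was at −0.04 and −1.53 in Fr3, −2.92 and −1.99 in Fr1 and −3.44 and −5.10 in Fr2. Fr3 exceeded Fr1 by 1.67 on the log2 scale (3.18-fold) and Fr2 at least 4.47-fold. Between Fr1 and Fr2 the probes went opposite ways: probe 2 was well above background on the second Fr1 array and on no Fr2 array, whereas probe 1 was well above background on both Fr2 arrays and on no Fr1 array. With the mean of both probes in place of the brightest, the Fr3 minus Fr1 difference of Hal was 4.40.

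Ednrb, the receptor gene, had 3 probes, all on the minus strand of chromosome 14. Probe 1, for transcript variant 1, was at 2.97 and 2.10 in Fr3, −3.56 and −1.15 in Fr1 and −2.35 and −0.50 in Fr2. It was well above background on every array but the first of Fr1, so that Fr1 and Fr2 overlapped and neither lacked the signal. The mean was 2.53 ± 0.62 in Fr3, −2.36 ± 1.71 in Fr1 and −1.42 ± 1.31 in Fr2 (SD, n = 2 each). Fr3 exceeded Fr1 by 4.89 ± 1.00 (29.7-fold, with 1 of 2 Fr1 arrays well above background) and Fr2 by 3.96 ± 1.00 (15.5-fold).

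The other Ednrb probes were dimmer. Probe 3 (chr14:104220870-104220929) was at −0.41 and −0.50 in Fr3, −2.91 and −4.43 in Fr1 and −2.52 and −3.28 in Fr2, where the first array alone was well above background. Fr3 exceeded Fr1 at least 3.50-fold and Fr2 by 2.44 on the log2 scale. Probe 2 (chr14:104215479-104215538) was well above background on the first Fr3 array only, at −1.70, and so did not enter the tested set. Its level was −3.27 on the second Fr3 array, −4.59 and −4.32 in Fr1 and −5.16 and −5.22 in Fr2. All 3 probes had both Fr3 arrays above the other 4.

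Asgr2, the lectin subunit gene, was the steadiest of the annotated genes between the Fr3 arrays. It was at 1.68 and 1.70 in Fr3, −3.89 and −2.33 in Fr1 and −0.47 and −3.48 in Fr2. It was well above background on both Fr3 arrays, on no Fr1 array and on the first Fr2 array only, which lay far above the second. The mean was 1.69 ± 0.01 in Fr3, −3.11 ± 1.11 in Fr1 and −1.98 ± 2.13 in Fr2 (SD, n = 2 each). Fr3 exceeded Fr1 by 4.80 ± 1.06, at least 15.5-fold, and Fr2 by 3.67 ± 1.06 (12.7-fold, with 1 of 2 Fr2 arrays well above background).

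Gm2042 was well above background on both Fr3 arrays and on no other array. It was at 3.12 and 3.25 in Fr3, −4.70 and −4.41 in Fr1 and −5.19 and −5.24 in Fr2, as processed intensities 383 and 270 in Fr3, 1.14 and 1.29 in Fr1 and 0.916 and 0.916 in Fr2. Mean levels were 3.19 ± 0.10 in Fr3, −4.55 ± 0.20 in Fr1 and −5.21 ± 0.03 in Fr2 (SD, n = 2 each). On every array outside Fr3 the intensity was slightly below its own error (1.14 against 1.15 on the first Fr1 array). The SDs in Fr1 and Fr2 are thus spreads of background values and not of expression, and they enter the SEs below. Fr3 exceeded Fr1 at least 43.6-fold and Fr2 at least 70.1-fold, and the fitted log2 differences were 7.74 ± 0.52 and 8.40 ± 0.52. Over the whole array, 333 of 56601 probes (0.588%) were well above background on both Fr3 arrays and on no other array, and of the 7 probes here the Gm2042 probe alone was among them.

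Of the brightest probes, that of Gm2042 alone was detected in Fr3 only. It was picked for its Fr3 level, and the source of its signal is uncertain, as given below. The label of an Fr3-restricted group did not hold for Hal or Ednrb, whose brightest probes were well above background on both Fr2 arrays. Nor did it hold fully for Asgr2, which was so on 1 of them. The gap between the lowest Fr3 array and the highest other array was 7.53 for Gm2042, 3.91 for Hal, 2.59 for Ednrb and 2.15 for Asgr2 on the log2 scale. That of Gm2042 was taken to a background value. Ordered by that gap among 20817 genes, Gm2042 stood at place 1, Hal at 5, Ednrb at 28 and Asgr2 at 44. By the Fr3 minus Fr1 difference their places were 1, 4, 32 and 36 in the same order, and by Fr3 minus Fr2 1, 17, 40 and 60. All 4 were higher in Fr3 by the rule on overlap and a difference of 1. That rule held for 12.4% of genes against Fr1, 11.9% against Fr2 and 3.99% against both. Limma with Benjamini-Hochberg adjustment over all genes called 1 gene (0.0048%) between Fr3 and Fr1 and 1 (0.0048%) between Fr3 and Fr2, Gm2042 each time. No gene was called (0) with the replicate number as a block, with the arrays of the compared fractions alone, or without any single array other than Fr3 replicate 1; without that array 1476 and 988 genes were called. As the genes were picked on these contrasts, nothing is read from those counts.

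**Figure D2:**
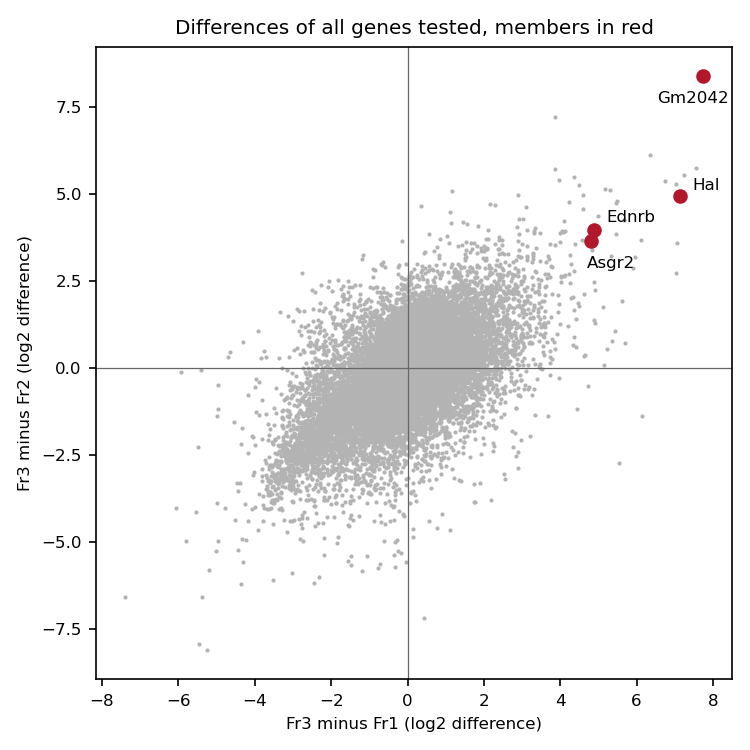
Log2 difference Fr3 minus Fr1 (x axis) against Fr3 minus Fr2 (y axis) for the 20817 genes tested (grey) with Hal, Ednrb, Asgr2 and Gm2042 in red. The axes share the Fr3 arrays, so the slope of the cloud is not a result. Gm2042 lies at 7.74 and 8.40, Hal at 7.14 and 4.94, Ednrb at 4.89 and 3.96 and Asgr2 at 4.80 and 3.67.

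The level on the second Fr3 array minus that on the first was −1.15 for Hal, −0.87 for Ednrb, 0.01 for Asgr2 and 0.14 for Gm2042. With each level centred on probes of the same number of T bases, this was −1.28 for Hal, −1.0002 for Ednrb, −0.12 for Asgr2 and 0.31 for Gm2042. The spread of Hal and Ednrb between the Fr3 arrays was thus no smaller after that centring.

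Fr1 against Fr2 is the comparison for which the genes were not picked, although the choice of genes high in Fr3 favours low levels in both. None of the 4 passed. Fr1 minus Fr2 was −2.20 ± 0.70 for Hal (limma adjusted p = 0.430), whose arrays did not overlap, −0.93 ± 1.00 for Ednrb (adjusted p = 0.802) and −1.13 ± 1.06 for Asgr2 (adjusted p = 0.768). The value of Hal rests on probe 1 and the background correction: it was −0.19 with the mean of both probes and −0.22 with normexp, another background correction, which gave −0.07 for Ednrb and −0.10 for Asgr2. For Gm2042 it was 0.66 ± 0.52 (adjusted p = 0.715), where neither fraction was well above background and no fold applies. Over all genes limma called 0 between Fr1 and Fr2 (0.0%), with 2038 at an unadjusted p under 0.05, and 14.1% of genes were lower in Fr1 by the rule on overlap and size, Hal among them. The sign for Ednrb turned to 0.27 without Fr1 replicate 1, and that for Asgr2 to 0.38 without Fr2 replicate 1. By level, the arrays of Hal probe 1 fell in the order Fr3, Fr2, Fr1 without overlap, although Fr1 and Fr2 did not pass the test; for the other 3 genes Fr1 and Fr2 were not ordered beyond their spread or their background.

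The array holds a probe that differs little from that of Gm2042. Of 75 other probes that share a run of 11 bases with it, the most alike was a probe of Pramel25 on chr4:143385418-143385477 (mm9), listed in the files under the older name Gm13023. It matched 51 of 59 overlapping bases (86.4%). The sequences are printed with the bases that differ or fall outside the overlap in capitals.
Gm2042: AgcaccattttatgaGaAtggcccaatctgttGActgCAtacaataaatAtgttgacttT
Pramel25: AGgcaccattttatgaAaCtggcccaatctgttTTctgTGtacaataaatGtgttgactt

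That Pramel25 probe had the same pattern as Gm2042 at a lower level. It was at 1.73 and 1.60 in Fr3, −4.54 and −4.26 in Fr1 and −4.98 and −5.03 in Fr2, and was well above background in Fr3 only. Its Fr3 signal exceeded that of Fr1 at least 15.2-fold and that of Fr2 at least 24.4-fold. The array's other Pramel25 probe, which matched the Gm2042 probe at 24 of 56 bases, did not show it: its levels were −1.83 and −2.16 in Fr3, −3.62 and −1.59 in Fr1 and −3.10 and −2.95 in Fr2, and Fr3 overlapped Fr1. The next most alike probes were not well above background on any array. They were a probe of Oog4, which matched 40 of 59 bases, and a probe of Pramel23, which matched 39 of 55. Whether the Gm2042 and Pramel25 probes measured separate transcripts or the same one was not tested, so the Gm2042 values are uncertain as to their source.

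**Figure D3:**
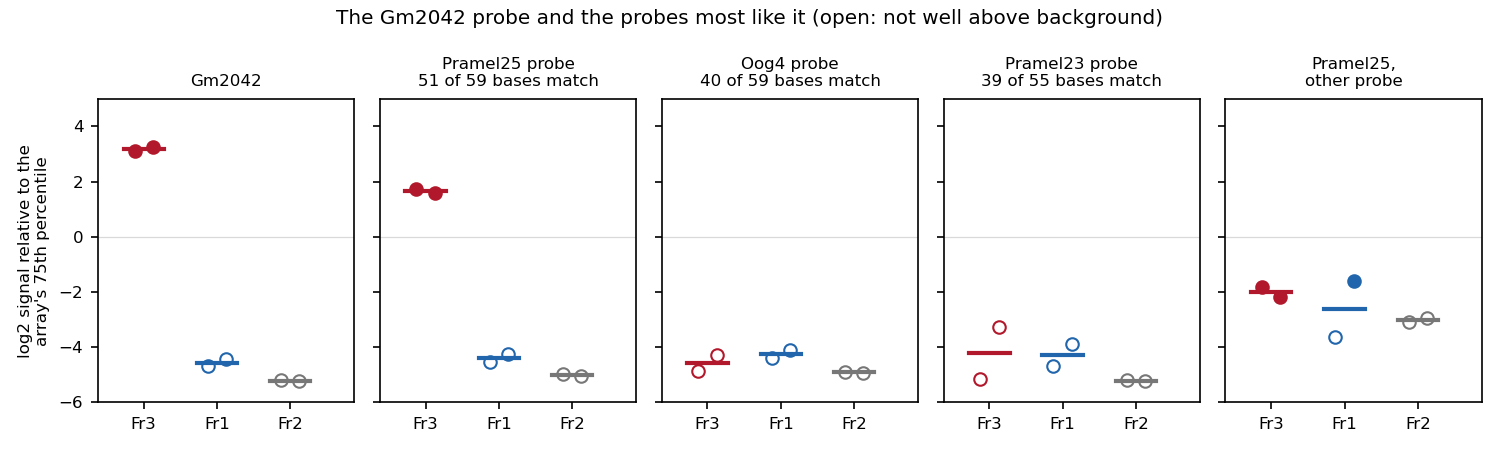
Levels (y axis, log2 signal relative to the array's 75th percentile) of the Gm2042 probe, of the probes most like it in sequence and of the other Pramel25 probe, in Fr3, Fr1 and Fr2 (x axis, 2 arrays each; bars are means; open points are not well above background). The Pramel25 probe that matches 51 of 59 bases follows Gm2042, at 1.73 and 1.60 in Fr3, and the other Pramel25 probe does not.

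Oog4 and the Pramel genes belong to the Prame family, a large family of leucine-rich repeat proteins known mainly from germ cells and early embryos. The array held 53 probes for 38 named genes of the Prame and Oog family, and 16 of those genes were tested. Of the probes, 15 were well above background on both Fr3 arrays, 25 on no array, and 2 in Fr3 alone, those of Pramel25 and Pramel17. Over all probes, 0.588% were so in Fr3 alone, and this Pramel25 probe is the one most like that of Gm2042. Over all spots, 52.0% and 46.5% were well above background on the first and second Fr3 arrays. The shares of all probes to set beside the 15 and the 25 were not worked out. By the rule on overlap and size, 2 of the 16 tested genes were higher in Fr3 than in both other fractions, Pramel17 and Pramel7, where 3.99% of all genes were. Pramel7 was at −1.37 and −0.64 in Fr3, −3.16 and −2.23 in Fr1 and −3.46 and −2.08 in Fr2. Pramel17 was at −0.96 and −1.71 in Fr3, −2.73 and −2.13 in Fr1 and −3.28 and −3.14 in Fr2. Pramel25 was not counted among these genes, because its other probe, brighter on average over the 6 arrays, stood for the gene. The Pramel25 probe most like that of Gm2042 met the rule by itself, with the levels given above. Another probe of Pramel7 and of Pramel17, too dim to be kept, was not well above background on any array.

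The other enzymes of histidine breakdown did not share the pattern of Hal. Amdhd1, the third enzyme of the route, was at 2.20 and 3.21 in Fr3, 2.57 and 4.53 in Fr1 and 1.67 and 2.87 in Fr2, and all fractions overlapped. Ftcd, the last enzyme, which passes a formimino group to folate, was at −0.23 and 0.79 in Fr3, 0.96 and 1.01 in Fr1 and −0.53 and −0.19 in Fr2, so Fr3 overlapped Fr2. Uroc1, the urocanate hydratase gene that follows Hal, was not well above background on both arrays of any fraction and was not tested.

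Of the 14 tested genes of histidine breakdown, transport and histamine other than Hal, 1 was higher and 2 lower in Fr3 than in Fr1, where 12.4% and 7.91% of all genes were. Against Fr2, 1 was higher and 2 lower (11.9% and 12.9% of all genes), and none of the 14 passed limma's adjusted p in either comparison (0). Their median difference was 0.12 against Fr1 and 0.54 against Fr2, beside 0.05 and 0.08 over all genes. Hnmt, which inactivates histamine by methylation, was at 0.93 and −0.20 in Fr3, −4.65 and −2.64 in Fr1 and 0.66 and −5.17 in Fr2. Its signal in Fr3 exceeded that in Fr1 at least 6.19-fold, and Fr2 spanned the levels of both. Hdc, which makes histamine from histidine, was lower in Fr3: it was at 2.11 and 1.33 in Fr3, 2.58 and 3.97 in Fr1 and 3.25 and 4.96 in Fr2. Mast cell and basophil markers, among which Hdc also counts, had 7 of 11 genes not tested. In multiples of the 75th percentile, their sum was 10.4 and 4.60 in Fr3, 12.7 and 22.8 in Fr1 and 14.8 and 42.6 in Fr2. Hdc alone made up 4.32 and 2.52 of it in Fr3, 5.99 and 15.64 in Fr1 and 9.50 and 31.07 in Fr2. Without Hdc the other 3 summed to 6.10 and 2.08 in Fr3, 6.70 and 7.20 in Fr1 and 5.31 and 11.52 in Fr2. Fr3 then overlapped Fr2 and lay below Fr1. The part of mast cells, basophils or other cells in the Hdc signal was not tested. Aldh1l2, a mitochondrial folate enzyme gene, was lower than in Fr1. Its levels were 2.76 and −0.51 in Fr3 and 3.46 and 2.89 in Fr1, so the difference came mainly from the second Fr3 array. The peptide and histidine transporter genes Slc15a3 and Slc15a4 were higher and lower than in Fr2. These counts moved with the Fr3 arrays: without replicate 1 there were 5 higher and 3 lower against either fraction. Without replicate 2 there were 1 higher and 4 lower against Fr1, and 1 higher and 1 lower against Fr2, as there were with levels centred by T bases.

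**Figure D4:**
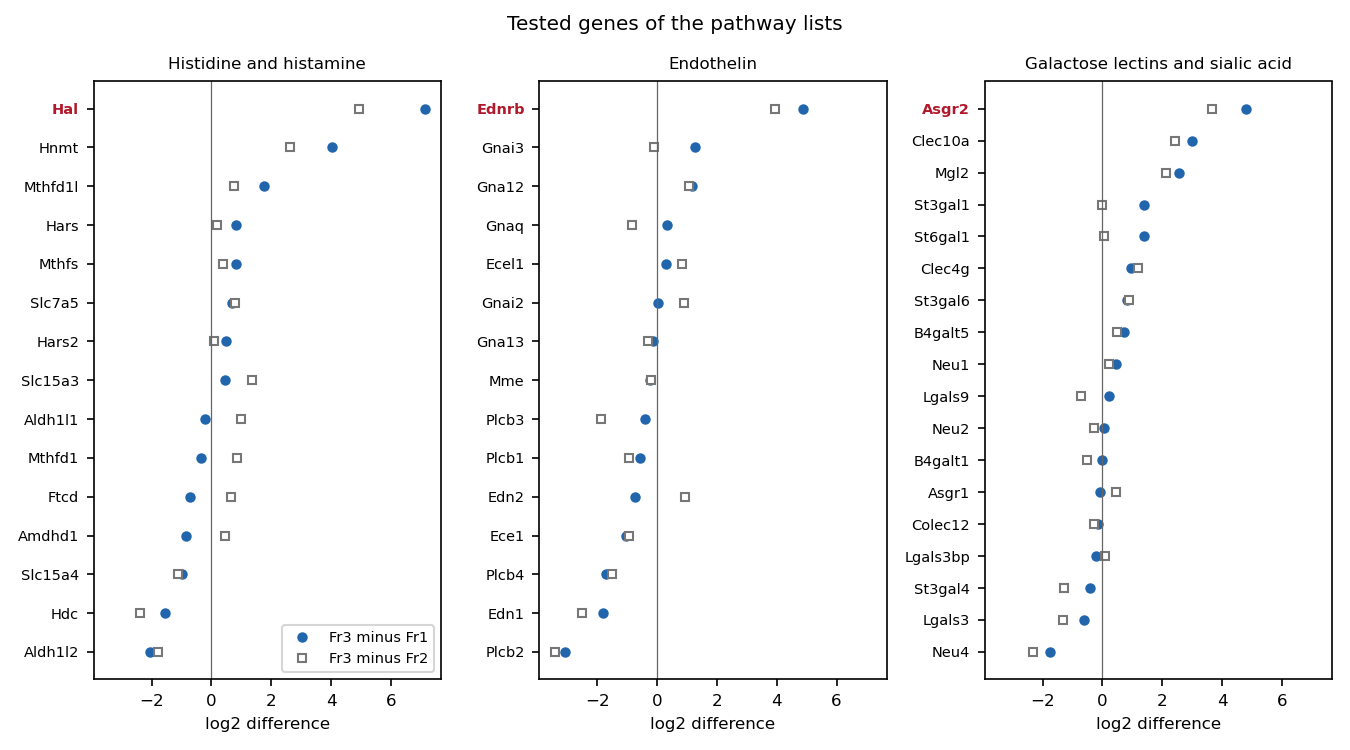
Log2 differences (x axis) of the tested genes of 3 lists, the histidine and histamine genes, the endothelin genes and the galactose lectin and sialic acid genes (y axis, ordered by Fr3 minus Fr1); filled points are Fr3 minus Fr1 and open squares Fr3 minus Fr2, each from means of 2 arrays. Hal, Ednrb and Asgr2, in red, head their lists, as they were picked to; Hnmt follows at 4.01, Clec10a at 2.98 and Mgl2 at 2.54 against Fr1.

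In the endothelin system, the ligand gene Edn2 was well above background in all fractions, Edn1 in Fr2 alone, and the other receptor gene in none. Edn1, the main vascular endothelin gene, was at −4.97 and −4.42 in Fr3, −2.72 and −3.10 in Fr1 and −2.45 and −1.90 in Fr2. Edn2 was at −1.92 and −0.56 in Fr3, −1.06 and 0.04 in Fr1 and −2.70 and −1.69 in Fr2, so Fr3 overlapped both. Edn3 and Ednra, which encodes the type A receptor, were not well above background on both arrays of any fraction. Ece1, whose protease cuts the endothelin precursors to their active form, was at 2.57 and 2.11 in Fr3, 3.66 and 3.07 in Fr1 and 3.14 and 3.44 in Fr2. Its difference was −1.02 against Fr1 and −0.95 against Fr2.

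Among genes that couple the receptor inside the cell, Gna12, a G protein subunit gene, was higher in Fr3 than in both other fractions (1.17 against Fr1 and 1.06 against Fr2). Gnai3, another subunit gene, was higher than in Fr1 (1.29) and overlapped Fr2. Plcb2, which encodes a phospholipase C downstream of G proteins, had the lowest difference on the list: it was at −0.43 and 0.65 in Fr3, 3.04 and 3.33 in Fr1 and 4.19 and 2.84 in Fr2. Plcb4 was lower than in both (−1.71 and −1.50) and Plcb3 lower than in Fr2 (−1.88). The differences of Plcb4 came mainly from the second Fr3 array: it was at 0.93 and −1.67 in Fr3, 1.73 and 0.96 in Fr1 and 1.20 and 1.06 in Fr2. In all, 2 of 14 tested genes other than Ednrb were higher and 4 lower than in Fr1, and 1 was higher and 4 lower than in Fr2. Over all genes these shares were 12.4% higher and 7.91% lower against Fr1, and 11.9% and 12.9% against Fr2. None of the 14 passed limma's adjusted p (0). Edn1 is counted as lower than in Fr1 although it was not well above background in either. The median difference was −0.32 against Fr1 and −0.56 against Fr2. Without Fr3 replicate 1 the counts were 0 higher and 4 lower against Fr1, and 3 higher and 6 lower against Fr2; with levels centred by T bases 1 was higher against Fr1 and 0 against Fr2.

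Asgr1, which encodes the partner subunit of the hepatic receptor, did not follow Asgr2. It was at −0.98 and 0.63 in Fr3, −0.32 and 0.13 in Fr1 and −0.35 and −0.87 in Fr2, with Fr3 overlapping both other fractions and differences of −0.08 against Fr1 and 0.44 against Fr2. The macrophage galactose lectins, related to the receptor in sequence and in the sugars they bind, were higher in Fr3. Clec10a was at 6.89 and 5.58 in Fr3, 4.15 and 2.36 in Fr1 and 4.62 and 3.03 in Fr2. Mgl2 was at 6.93 and 6.58 in Fr3, 4.17 and 4.26 in Fr1 and 5.76 and 3.48 in Fr2. Both were on the list of CD206-high markers and were known from earlier results of these data.

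Of the 17 tested galactose lectin and sialic acid genes other than Asgr2, 4 were higher than in Fr1 and 0 lower, where 12.4% and 7.91% of all genes were; the others beside the lectins were the sialyltransferase genes St3gal1 (1.40) and St6gal1 (1.39). Against Fr2, the 2 lectins were higher and 3 genes lower, namely the galectin gene Lgals3 (−1.33), the sialyltransferase gene St3gal4 (−1.29) and the sialidase gene Neu4 (−2.31), beside 11.9% and 12.9% of all genes. None passed limma's adjusted p (0). The median difference was 0.21 against Fr1 and 0.04 against Fr2. Clec4f and Neu3 were not tested. Neu4 was at −1.47 and −4.58 in Fr3, where 1 of 2 arrays was well above background, −0.29 and −2.24 in Fr1 and −0.79 and −0.63 in Fr2. With levels centred by T bases, 2 genes were higher and 2 lower than in Fr2. Without Fr3 replicate 1 there were 6 higher and 1 lower against Fr1, and 4 higher and 3 lower against Fr2.

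A further list, of 12 translation start factor genes, was drawn up for a possible kinship with Gm2042 that the annotation used here does not state. It had 4 members higher than in Fr1, namely Eif1a (1.60), Eif1ax (1.04), Eif1ad (1.22) and Eif2s3x (1.38), and 0 lower, where 12.4% and 7.91% of all genes were. None was higher or lower than in Fr2 (0), and the medians were 0.20 and −0.04. Without Fr3 replicate 1 there were 2 higher and 2 lower against Fr1 and 1 higher and 1 lower against Fr2. Without Fr3 replicate 2 there was 1 higher against Fr2, and with levels centred by T bases there were 2 higher against Fr1.

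The genes beside each member, taken within 500 kb of its probe, were looked at after the levels were known. Of the 13 tested genes around Hal, 2 were higher in Fr3 than in both other fractions, Cdk17 and Usp44, at 250.7 and 341.5 kb. The nearest tested neighbours were Amdhd1 at 23.5 kb, given above, and Lta4h, a leukotriene enzyme gene 31.6 kb away on the other side, with differences of −0.33 against Fr1 and −1.19 against Fr2. Around Ednrb 0 of 5 were higher in both.

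Asgr2 lies in a gene-dense stretch with 52 tested neighbours, of which 5 were higher in both. They were Mgl2 at 31.4 kb and Clec10a at 64.7 kb, the chromatin reader gene Phf23 (1.98 and 1.97), the macrophage lysosome gene Cd68 (2.42 and 2.07) and the cytokine gene Tnfsf12 (3.64 and 2.57). Phf23, Tnfsf12 and Cd68 lie on the other side of Asgr2 from Mgl2 and Clec10a, at 106.7, 419.0 and 441.8 kb. Asgr1, 48.3 kb away, and Dlg4, 60.8 kb away (−2.79 and −2.45), are on that side too and were not higher in both. The differences of Dlg4 came mainly from the second Fr3 array: it was at 2.09 and −2.61 in Fr3, 2.87 and 2.20 in Fr1 and 2.30 and 2.09 in Fr2. Around Gm2042 1 of 20 was higher in both, Gm5039, a transcribed pseudogene in RefSeq, at 360.6 kb (2.80 and 1.36). Pramel51, at 215.3 kb, was at 0.36 and 0.56 in Fr3, −0.38 and 0.13 in Fr1 and −0.82 and −0.54 in Fr2. Over all genes 3.99% were higher in both.

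**Figure D5:**
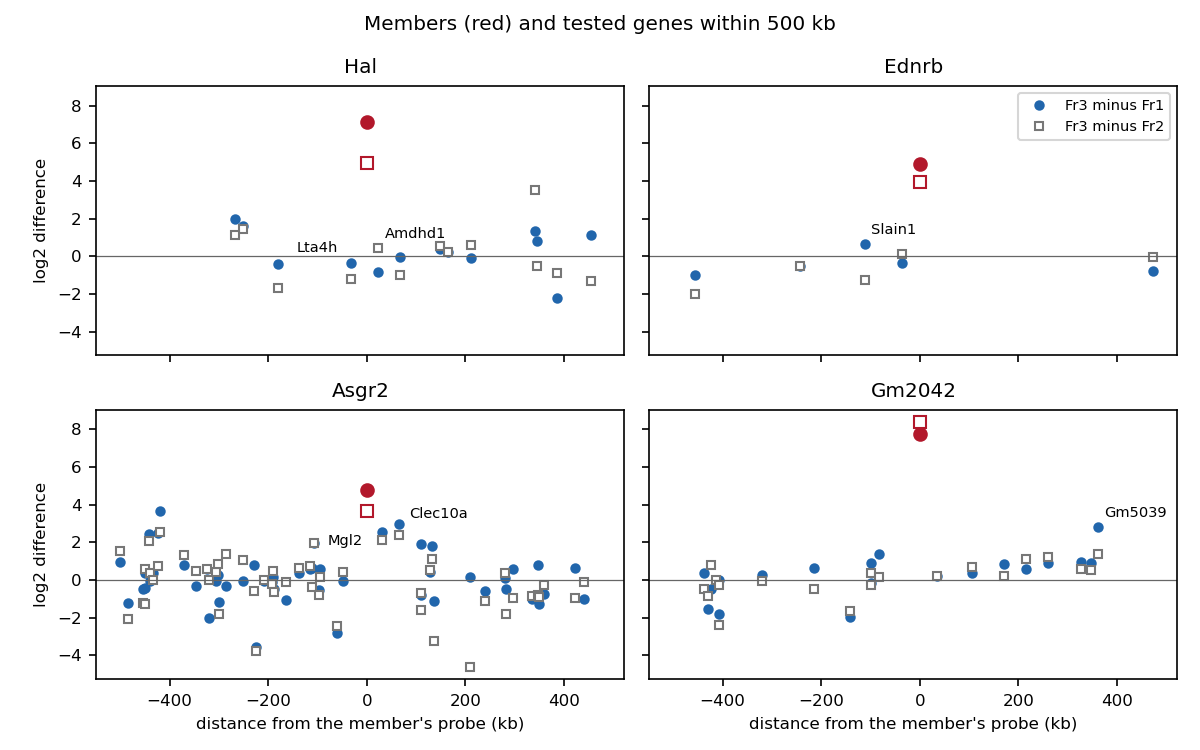
Log2 differences (y axis) of the tested genes within 500 kb of each member's probe, by distance in kb along the chromosome (x axis); filled points are Fr3 minus Fr1 and open squares Fr3 minus Fr2, and the member is in red at 0. None of the neighbours reached its member; beside Asgr2, Mgl2 lies at 2.54 and Clec10a at 2.98 against Fr1.

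The genes whose profile over the 6 arrays was most like each member were found by Euclidean distance between profiles taken about their own mean, among 13077 named genes. The members were chosen for a high Fr3 level, so like genes share it. For Hal they were Lyve1, a hyaluronan receptor gene (distance 1.24), the chemokine gene Ccl7 (1.60), the lectin gene Cd209f (1.76), the platelet factor 4 gene Pf4 (1.76) and the coagulation factor gene F13a1 (1.96). Lyve1 was at 3.37 and 1.89 in Fr3, −4.36 and −4.43 in Fr1 and −1.57 and −3.77 in Fr2, and Hal likewise was lower on the second Fr3 array. For Asgr2 they were Tmem37 (1.12), the metalloproteinase inhibitor gene Timp2 (1.32), Ms4a4a (1.48), Gen1 (1.498) and Stard8 (1.61). Timp2 was at 4.25 and 4.03 in Fr3, −0.33 and −0.11 in Fr1 and 2.68 and −0.0045 in Fr2, with the high first Fr2 array that Asgr2 also had.

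The nearest gene to Ednrb and the nearest to Gm2042 lay farther away than the nearest to Hal or to Asgr2. For Ednrb the nearest were the ketone body enzyme gene Acat1 (1.96), Dcun1d1 (2.18), the growth factor binding protein gene Igfbp4 (2.32), Arhgap35 (2.35) and the chemokine gene Ccl8 (2.45). For Gm2042 they were the complement receptor gene Vsig4 (3.21), Cd209f (3.23), the folate receptor gene Folr2 (3.59), the carbonyl reductase gene Cbr2 (3.70) and Chp2 (3.75). Among themselves the members lay 3.40 (Hal and Asgr2) to 5.30 (Asgr2 and Gm2042) apart, so each was nearer to other genes than to another member.

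Markers of other cells known for Ednrb, Hal or Asgr2 were measured on the same arrays. Of the 12 melanocyte markers 7 were tested, and the pigment genes Pmel, Tyrp1, Mlana, Slc45a2 and Oca2 were not well above background on both arrays of any fraction. The summed signal of the 7 was 10.97 and 12.3 in Fr3, 15.2 and 13.4 in Fr1 and 9.97 and 13.1 in Fr2, which did not rank Fr3 above the others. Dct alone made up 5.95 and 7.72 of it in Fr3, 7.80 and 7.04 in Fr1 and 4.46 and 4.23 in Fr2. By the rule on overlap and size, Kit was lower in Fr3 than in both other fractions, and Trpm1 was lower than in Fr2. Trpm1 was at 1.13 and −0.78 in Fr3 and 1.34 and 1.73 in Fr2, so its difference came mainly from the second Fr3 array. The 8 of 15 endothelial markers tested summed to 5.63 and 6.96 in Fr3, 5.56 and 6.51 in Fr1 and 5.72 and 6.35 in Fr2, and Pecam1, Kdr, Tek, Tie1, Emcn, Esam and Ptprb were not tested. Vwf alone made up 2.43 and 4.38 of it in Fr3, 3.87 and 3.07 in Fr1 and 0.97 and 2.00 in Fr2. Single endothelial genes differed by the same rule: Robo4 was higher and Cdh5 lower in Fr3 than in Fr1. Against Fr2, Vwf and Flt1 were higher and Egfl7 and Plvap lower. Cdh5 was at −1.51 and −4.32 in Fr3 and −0.76 and −0.61 in Fr1, so its difference came mainly from the second Fr3 array. That of Robo4 came mainly from the first, with levels of 0.89 and −1.69 in Fr3 and −1.93 and −1.90 in Fr1. The 7 of 12 Schwann cell and glia markers tested summed to 166 and 118 in Fr3, 67.2 and 80.5 in Fr1 and 154 and 70.6 in Fr2. S100b, Gfap, Cdh19, Erbb3 and Cnp were not tested. That sum was above both Fr1 arrays in Fr3, and Egr2 alone, which encodes a zinc finger transcription factor, made up 119 and 68.0 of it in Fr3, 21.5 and 21.1 in Fr1 and 106 and 17.6 in Fr2. Without Egr2, the sum of the other 6 was 46.3 and 49.9 in Fr3, 45.7 and 59.4 in Fr1 and 47.6 and 53.0 in Fr2, and Fr3 was no longer above Fr1. By the rule on overlap and size, Egr2 and Ngfr were higher and Pmp22 lower in Fr3 than in Fr1, and Foxd3 was higher and Pmp22 lower than in Fr2. The part of such cells in the Ednrb signal was not tested.

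The summed signal of the hepatocyte markers in Fr3 overlapped that in both other fractions. The 5 of 10 tested summed to 2.39 and 4.14 in Fr3, 2.60 and 3.61 in Fr1 and 4.78 and 2.82 in Fr2, while Alb, Apoa1, Ttr, Ahsg and Hpx were not well above background on both arrays of any fraction. The 9 of 17 epithelial markers tested summed to 146 and 236 in Fr3, 153 and 200.2 in Fr1 and 174 and 163 in Fr2, and Fr3 overlapped both other fractions in that sum. The Trp63 probe alone made up 141 and 227 of it in Fr3, 145 and 193 in Fr1 and 165 and 155 in Fr2. Without it the other 8 summed to 5.13 and 8.61 in Fr3, 7.21 and 7.66 in Fr1 and 8.76 and 7.28 in Fr2. Krt14, which was well above background on 1 of 2 Fr3 arrays, Krt13 and Perp were higher in Fr3 than in Fr1. Against Fr2, Krt13 was higher and Krt6a, Dsp and Perp were lower. The part of epithelium in the Hal signal was not tested, nor was that of hepatocytes in the Asgr2 signal.

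RefSeq lists 1 promoter for each gene (build GRCm38.p6, 250 bases before to 50 after the start). As the members share a high Fr3 level, by choice, their promoters were searched on both strands for 7 short motifs, chosen after the sequences were seen, and no motif was found in all 4. GAGGAA, the core bound by the myeloid factor PU.1, was found in Gm2042 alone, 15 bases after the start, and is present in 28.3% of the 32851 promoters. There it is part of GAGGAAGT, which 3.20% of promoters hold. TGCTGA, a MAF core, was found in Ednrb (19.5% of promoters), the E-box CACGTG in Asgr2 (7.15%), the E-box CATGTG in Hal and Asgr2 (14.2%), and TATAAA on the opposite strand of Hal, 28 bases before the start (13.6%). TGACTCA, an AP-1 core, was in none of the 4 (5.20%). The promoters of Gm2042, with GAGGAA in capitals, and of Hal, with the TATAAA match in capitals as it reads on the strand shown, are printed to show these matches.
Gm2042, chr12:87954230-87954529, plus strand: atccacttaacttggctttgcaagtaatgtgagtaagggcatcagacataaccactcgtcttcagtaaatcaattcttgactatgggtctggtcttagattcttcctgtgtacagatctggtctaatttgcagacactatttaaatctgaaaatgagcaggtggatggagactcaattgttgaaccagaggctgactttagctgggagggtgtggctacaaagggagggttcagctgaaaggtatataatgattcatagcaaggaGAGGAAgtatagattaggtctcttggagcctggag
Hal, chr10:93488518-93488817, plus strand: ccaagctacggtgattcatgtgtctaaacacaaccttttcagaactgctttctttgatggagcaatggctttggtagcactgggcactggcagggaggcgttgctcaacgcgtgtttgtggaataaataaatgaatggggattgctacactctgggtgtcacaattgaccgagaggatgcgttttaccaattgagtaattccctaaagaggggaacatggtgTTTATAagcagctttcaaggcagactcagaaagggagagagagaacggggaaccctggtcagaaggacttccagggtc
A match of letters does not show a binding site.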

How the data were processed

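Gene expression was measured on 6 1-colour Agilent arrays, 2 for each of Fr3, Fr1 and Fr2, with 62976 spots each. Per the file headers, Feature Extraction 11.5.1.1 of Agilent was run on the scans and gave the deposited intensity values, with background subtracted and dim spots at surrogate values. A deposited table of the authors' own log2 values served as an alternative. It correlated with the scanner values at r of at least 0.9999, had column medians from −2.44 to −2.25 and was centred on the 75th percentile of each array, so scale and direction were known.

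For each spot log2 was taken and that of the array's 75th percentile subtracted, and these levels were averaged over the spots of a probe. The filter kept 27867 probes that were well above background on each array of some fraction, and 4 probes with an outlier flag were left out. The brightest kept probe stood for a gene (20817 genes, 5123 with several kept probes). Probe names were matched to RefSeq by accession for 32994 probes, by symbol for 10224 and by synonym for 520. For 12867 no unique match was found, and the name in the files was used.

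The linear model, fitted by limma 3.58.1 (R 4.3.3), held a mean per fraction and used every array. P-values were two-sided and adjusted by Benjamini-Hochberg, with a threshold of 0.05. The fit was tested on simulated data. Tables were handled in Python 3.11.15. The number of arrays limits the precision. All probes of the members, the sort markers, pathway list genes whose arrays did not overlap by a difference of 1, the 5 most similar genes and the probes most like that of Gm2042 were to be named; further genes, among them the partner and neighbour genes, were named after their values were seen. Some list genes are not reported here. The members, lists and rules were chosen with earlier results of these data known. Alternatives covered background correction, normalization, probe base content, filters, probe choice, value source, the arrays of the compared fractions alone, replicate number and leaving out each array. No alternative could separate slide from fraction in comparisons with Fr2. Added after the data were seen were list counts without each Fr3 array or centred by T bases, and list sums without their brightest gene.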

Additional observations from a re-analysis of the deposited data

How the results depend on the processing

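The 112 differences of the members between Fr3 and Fr1 or Fr2 under the alternatives were all positive, as the members were picked to be. Of them, 99 moved by less than the SD between replicates, among them all 48 from leaving out an array. Leaving out 1 of 2 arrays always shifts a mean by less than that fraction's SD. Other settings, such as no filter or the replicate block, leave the difference of a gene's brightest probe unchanged. The 99 are therefore no measure of stability. The 13 that moved further were the following. With normexp, which lifts dim spots, the differences were smaller: Fr3 minus Fr1 was 2.79 for Hal, 1.92 for Ednrb, 1.41 for Asgr2 and 2.77 for Gm2042, and Fr3 minus Fr2 was 2.57, 1.85, 1.31 and 2.87 in the same order. With the mean of all kept probes Hal had 4.40 against Fr1. For Gm2042, quantile normalization gave 8.05 against Fr1 and 8.04 against Fr2, centring by T bases gave 8.52 against Fr2 and the values deposited by the authors 8.28 against Fr2. With probes above background on all arrays alone, no member was left to give a value. Leaving out each array in turn, Fr3 minus Fr1 ranged over 6.57 to 7.72 for Hal, 3.68 to 6.10 for Ednrb, 4.01 to 5.58 for Asgr2 and 7.60 to 7.88 for Gm2042. Fr3 minus Fr2 ranged over 4.36 to 5.51, 3.03 to 4.89, 2.16 to 5.17 and 8.33 to 8.47 in that order.

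Fr1 minus Fr2 of Hal was −2.20, but −0.19 with the mean of all kept probes and −0.22 with normexp. Fr1 minus Fr2 changed sign for Gm2042 with quantile normalization (−0.015). Without single arrays it ranged from −2.14 to 0.27 for Ednrb and from −2.63 to 0.38 for Asgr2. The cause was not tested.

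Counts of genes that limma called were unstable. Fr3 against Fr1 gave 1 gene in the main setting, 3 with normexp, 0 with no filter, 0 with the arrays of these fractions alone and 0 to 1476 without single arrays, with 1476 without Fr3 replicate 1. Fr3 against Fr2 gave 1, then 14 with normexp, 9 with probes above background on all arrays, 0 with the arrays of these fractions alone and 0 to 988 without single arrays, with 988 without Fr3 replicate 1. Fr1 against Fr2 gave 0, then 13 with the arrays of these fractions alone and 0 to 13 without single arrays, with 13 without either Fr3 array. With the replicate number as a block, 0 genes were called between Fr3 and Fr1 and 0 between Fr3 and Fr2. Deviations of same-numbered arrays correlated at 0.118 (Fr1 and Fr2), 0.433 (Fr3 and Fr1) and 0.0458 (Fr3 and Fr2). The sources used here do not say whether same-numbered fractions were sorted together, so the numbers were not taken to pair the arrays. Signal over background limits Hal, Asgr2 and Gm2042 in Fr1 and Gm2042 in Fr2 to bounds.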

Other observations

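Other genes had wide gaps between the lowest Fr3 array and the highest other array. After Gm2042, the widest were those of the lectin gene Cd209f (4.85 on the log2 scale), the folate receptor gene Folr2 (4.07) and the carbonyl reductase gene Cbr2 (3.999). Hal (3.91) was followed by the complement receptor gene Vsig4 (3.86), the growth factor gene Pdgfc (3.65), Mxra8 (3.49), Chp2 (3.47), the hyaluronan receptor gene Lyve1 (3.45) and Gprc5c (3.41). The ceruloplasmin gene Cp (3.08), the chemokine genes Ccl7 (2.89) and Cxcl13 (2.69) and the sulfatase gene Sulf2 (2.80) stood between Hal and Ednrb. These gaps order genes by the values that chose the members and carry no test.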
